A study of Rattus norvegicus with 2 samples.

Results

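Cytosolic ribosomal proteins are the structural proteins of the small (Rps) and large (Rpl) subunits of the ribosome that translates nuclear mRNAs. Their mRNAs begin with a run of pyrimidines, the 5′ terminal oligopyrimidine (TOP) tract, through which growth signals control how strongly they are translated, and dividing or growing cells are known to make many of them. A few members have paralogs, duplicated genes used in certain tissues, and the best known in muscle is Rpl3l, which takes the place of Rpl3 in ribosomes of striated muscle fibers.

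Members were all gene rows whose name began with Rpl or Rps and a number, together with Rplp0, Rplp1, Rplp2, Rpsa and Rack1. Rps6k kinases and names that contain -ps were left out. Gene copies without that mark in their name, such as Rps15al4 and Rps10l1, stayed in. The rule found 108 of 23373 rat rows and 88 of 25906 mouse rows. The rat rows carried 83 names, since 15 names stood on several rows (40 rows), which were summed. The mouse rows carried 88 names, 75 of them shared with rat. The shape of a name does not ensure its role, and a few members (for example Rps19bp1 and Rpl7l1) are named after a ribosomal protein without being one. Fau, which encodes a ribosomal protein fused to a relative of ubiquitin, is not reached by the rule.

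The data were single-cell RNA-seq (scRNA-seq) libraries of whole-body skeletal muscle from 1 rat-mouse chimera and 1 Sprague-Dawley (SD) rat, collected to learn which muscle cells the mouse donor cells had formed. The chimera was an SD rat that had received mouse induced pluripotent stem cells as a morula. The donor cells were CRISPR/Cas9-edited Dmd mdx; Pax7-nGFP cells, so all mouse cells carried the edited dystrophin allele and a nuclear GFP driven from Pax7. Both animals' muscle was digested with collagenase II, live cells were sorted with a viability dye, and neither library was enriched for muscle stem cells. Ages and sexes of the 2 animals were not given in the sources used here.

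Counts are unique molecular identifiers (UMIs), 1 for each captured transcript molecule, read at the 3′ end and therefore not divided by gene length. The 2 libraries totalled 118872850 UMIs (chimera) and 70957559 UMIs (SD rat), and after filters 11730 and 8816 cells were used, with medians of 7848 and 6276 UMIs per cell. A chimera cell was called rat with at most 20% of its UMIs on mouse rows (8230 cells), mouse with at least 80% (1847 cells) and mixed in between (1653 barcodes, left out of the classes). Cells were clustered without the members and named "X-like" from marker genes; FAP stands for fibro-adipogenic progenitor, the connective tissue progenitor of muscle, MP for myogenic progenitor, the muscle stem and precursor cell, EC for endothelial cell and LyEC for lymphatic endothelial cell. The barcodes of 43 cells occurred in both libraries. The chimera was mapped to rat and mouse rows together and the SD rat to rat rows alone. With 1 library per group there was no replicate and no test, and intervals given are exact 95% intervals that cover counting error only.

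The 2 promoters below were chosen because they belong to the paralog pair that differed most between muscle cells and all other classes. They come from the RefSeq annotation of the rat build GRCr8 and run from 250 bases before to 50 bases after the annotated start, on the coding strand. Capitals mark E-boxes, the motif CANNTG that myogenic transcription factors are known to bind and that reads the same on both strands.
Rpl3 (chr7:113507941-113508240, minus strand): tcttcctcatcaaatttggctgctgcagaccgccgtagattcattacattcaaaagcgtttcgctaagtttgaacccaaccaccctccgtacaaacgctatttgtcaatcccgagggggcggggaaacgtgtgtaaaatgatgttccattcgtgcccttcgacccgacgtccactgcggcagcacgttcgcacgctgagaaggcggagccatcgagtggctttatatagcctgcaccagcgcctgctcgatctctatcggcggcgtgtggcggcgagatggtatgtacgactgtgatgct
Rpl3l (chr10:14258196-14258495, plus strand): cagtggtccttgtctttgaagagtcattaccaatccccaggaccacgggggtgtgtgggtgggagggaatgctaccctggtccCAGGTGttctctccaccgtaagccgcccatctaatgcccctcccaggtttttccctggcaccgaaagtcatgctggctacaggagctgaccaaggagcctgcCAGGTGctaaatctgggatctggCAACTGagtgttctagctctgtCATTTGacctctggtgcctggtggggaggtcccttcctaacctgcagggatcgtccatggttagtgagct
The Rpl3l window held 4 E-boxes and the Rpl3 window 0. Such counts are common, as 16.6% of 33469 annotated rat promoter windows held 3 or more E-boxes and 72.1% held at least 1, against 9.23% and 52.3% of the 65 member windows. Short pyrimidine runs were searched on the coding strand, with CTTTC as the first form, CTCTT as the second form, CCTTT as the third form and CTTTT as the fourth form, which overlap one another. At least 1 of these forms lay within 20 bases of the annotated start in 67.7% of member windows and in 15.05% of all windows, but in neither of the 2 windows printed. The 65 windows covered 64 of the 83 rat names, and these letter matches are a description of the windows, not of binding.

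Rpl3l and Rpl3 exchanged places between muscle fibers and every other named class with enough UMIs. In Myocyte-like cells, the contractile fiber cells and fragments of this tissue, Rpl3l made up 77.1% (95% interval 76.0 to 78.2) of the Rpl3l and Rpl3 UMIs in the SD rat, from 4511 against 1339 UMIs in 1533 cells. In rat cells of the chimera it made up 72.2% (70.9 to 73.5), from 3328 against 1283 UMIs in 834 cells. In mouse cells of the chimera it made up 94.1% (85.6 to 98.4), from 64 against 4 UMIs in only 29 cells. In the other named SD rat classes the share ran from 0.757% in MP-like cells to 4.33% in EC-like cells. In the other named chimera rat classes of at least 20 cells it ran from 0.201% in Cycling-like to 3.15% in Pericyte or mural-like cells, and in the other mouse classes it stayed at or under 0.448%. The 19 Erythroid-like rat cells held 2 UMIs of each gene and gave no usable share.

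**Figure D1:**
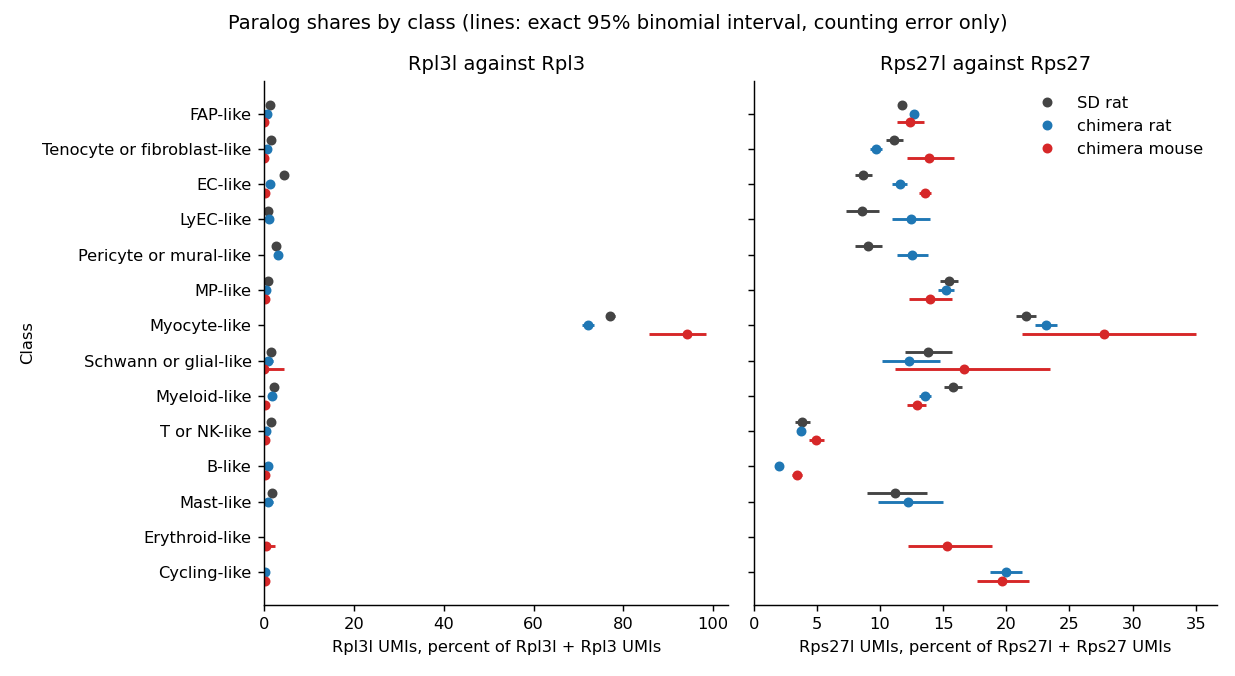
Share of the paralog in the UMIs of its pair (x axis, percent) for Rpl3l with Rpl3 (left) and Rps27l with Rps27 (right) in each class (y axis) of SD rat, chimera rat and chimera mouse cells; lines are exact 95% intervals of counting error, and the 19 Erythroid-like chimera rat cells are not drawn. Myocyte-like cells stand at 72.2 to 94.1% for Rpl3l and all other drawn classes at or under 4.33%, while the Rps27l share is lowest in T or NK-like and B-like cells.

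The level of Rpl3l in Myocyte-like cells, in counts per 1e6 UMIs (CPM) of the cell's own species, was 676 CPM in the SD rat, 701 CPM in chimera rat cells and 696 CPM in chimera mouse cells. Rpl3 stood at 201, 270 and 43.5 CPM there, against 1464, 1376 and 894 CPM in FAP-like cells of the same 3 populations. Both genes encode a protein next to the peptidyl transferase center of the large subunit. Markers of FAPs summed to 332 CPM in SD rat and 244 CPM in chimera rat Myocyte-like cells, against 29670 and 25909 CPM in FAP-like cells, and were at 0 CPM in mouse Myocyte-like cells. The Rpl3 level of Myocyte-like cells was 13.7% of the FAP-like level in the SD rat and 19.6% in chimera rat cells, and 4.87% in mouse cells.

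Low Rpl3l levels outside Myocyte-like cells stood beside low levels of other muscle fiber RNAs. In SD rat FAP-like cells Rpl3l stood at 2.59% of its Myocyte-like level, and 12 myocyte marker genes summed stood at 2.44% of theirs. The same pair of values was 6.57 and 6.47% in SD rat EC-like cells, and 3.30 and 3.67% in SD rat MP-like cells. In chimera rat cells it was 1.10 and 1.21% (FAP-like), 2.43 and 2.41% (EC-like) and 1.88 and 1.87% (MP-like). The pair lay further apart in some smaller classes, with 6.12 and 4.57% in SD rat T or NK-like, 5.14 and 3.91% in SD rat Schwann or glial-like, 5.17 and 4.24% in chimera rat Pericyte or mural-like and 1.81 and 3.102% in chimera rat Mast-like cells. In mouse cells, with 14 markers, the pair was 0.313 and 0.235% (EC-like), 0 and 0.0954% (FAP-like) and 0.312 and 0.320% (MP-like). It lay further apart in Myeloid-like (0.624 and 0.224%) and B-like mouse cells (0.362 and 0.144%). These mouse values rest on 16, 0, 1, 8 and 3 Rpl3l UMIs. Rpl3l counts outside Myocyte-like cells were not read as expression, and how they arose was not tested. The share of SD rat FAP-like cells with an Rpl3l UMI was 13.9% (450 of 3238) but 1.86% after each cell had been thinned to 1000 UMIs, at a median depth of 11003 UMIs. In Myocyte-like cells, at a median of 3659 UMIs, it was 82.3% (1261 of 1533) and 47.8% after thinning. Chimera rat Myocyte-like cells gave 92.4% (771 of 834) and 49.6%, and mouse ones 79.3% (23 of 29) and 53.8%. No Rpl3l UMI was found in the 126 mouse FAP-like cells. The exact upper limit was 2.89% for cells with a UMI of the gene, which sets no limit on cells that express it.

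Many rat Myocyte-like cells held UMIs of both paralogs, while few mouse ones did. Whether a fiber expressed both was not tested. Of the 1533 SD rat Myocyte-like cells, 656 held UMIs of both genes, 605 of Rpl3l only, 110 of Rpl3 only and 162 of neither. Among the 478 of them with at least 5 UMIs of the pair, the median cell had 83.3% Rpl3l (quartiles 69.4 to 100), and 443 cells (92.7%) had more Rpl3l than Rpl3. In chimera rat cells 552 of 834 held both, and the median of the 445 deeper cells was 75% (quartiles 60.0 to 85.7). In mouse cells 4 of 29 held both and 19 held Rpl3l only.

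The exchange was seen in fast fiber clusters and in clusters that held slow myosin. The SD rat cluster led by Myh4, the fastest myosin heavy chain, showed an Rpl3l share of 75.4% (862 cells). Another cluster with more myoglobin (Mb, 5771 against 614 CPM) showed 78.8% (607 cells). The cluster with the slow myosin Myh7 at 2008 CPM also held Myh4 at 1048 CPM, and showed 75.6% (64 cells, interval 69.0 to 81.5). The large chimera rat cluster showed 71.6% (810 cells). A small one with Myh7 at 1294 CPM and Mb at 14985 CPM showed 88.2% (24 cells, interval 82.0 to 92.9, 135 against 18 UMIs). The interval of the SD rat Myh7 cluster covered both other SD rat values, while that of the chimera cluster lay above the larger cluster. MP-like cells, which hold Pax7 and Myog, lay at 0.757% in the SD rat, 0.417% in chimera rat and 0.1004% in chimera mouse cells. The elongation factor pair Eef1a2 and Eef1a1 showed the same kind of exchange outside the ribosome. Eef1a2, the form known from muscle and nerve, made up 87.6% of the pair in SD rat Myocyte-like cells. It made up 91.2% in chimera rat and 62.9% in chimera mouse Myocyte-like cells, the last from 44 against 26 UMIs in 29 cells. In FAP-like cells of the 3 populations it made up 1.57, 1.02 and 0.0435%. Over all cells, rat-row Eef1a1 stood at 825 CPM in the SD rat and 481 CPM in chimera rat cells. Its reads on rows of the other species are not given here, so these shares were not compared between populations. The Eef1a2 share was 63.9% in the SD rat Myh7 cluster, against 88.8 and 88.3% in the other SD rat clusters. It was 89.2% in the chimera rat Myh7 cluster.

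Rps27l also differed between classes in all 3 populations. Rps27l is a near copy of the small subunit protein Rps27 and a known target of p53. It made up 3.80% of the pair in SD rat T or NK-like cells (157 against 3978 UMIs), 3.77% in chimera rat and 4.96% in chimera mouse T or NK-like cells. B-like cells were lower still in the chimera, at 2.04% (rat) and 3.41% (mouse). Myocyte-like cells were highest among classes shared by all 3 populations, at 21.6, 23.1 and 27.7%, and the intervals of Myocyte-like and lymphocyte shares lay far apart in each population. MP-like cells lay at 15.4, 15.2 and 13.95% and FAP-like cells at 11.7, 12.7 and 12.4%. Cycling-like cells reached 19.9% (rat) and 19.7% (mouse) in the chimera. The SD rat T or NK-like cluster also held B cell markers (1290 CPM, against 35.2 CPM in that of chimera rat cells).

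Rpl22l1 and Rpl22, large subunit proteins of which Rpl22 is known to repress Rpl22l1, could be compared on mouse rows only. On rat rows Rpl22 was almost absent (1592 UMIs in all SD rat cells, against 35841 of Rpl22l1), and in rat cells of the chimera 90.7% of the Rpl22 UMIs fell on the mouse row. On mouse rows Rpl22l1 made up 21.2% of the pair in Myeloid-like, 26.9% in EC-like, 43.0% in MP-like, 43.2% in FAP-like and 47.1% in Myocyte-like cells (interval 38.7 to 55.8). Rpl36al made up 45.8% of its pair with Rpl36a in mouse Myeloid-like, 44.1% in Myocyte-like and 27.2% in FAP-like cells, and was measured on mouse rows only. Rpl39l, known from testis, was rare: it held 188 UMIs in the SD rat (158 of them in FAP-like cells), 44 in chimera rat and 48 in mouse cells, 32 of these 48 in Tenocyte or fibroblast-like cells. Rpl10l, an autosomal copy of Rpl10 known from testis, held 0 mouse UMIs against 15355 of Rpl10, and Rpl7l1 made up 3.09% of its mouse pair with Rpl7. Rpl10 and Rpl7 were likewise measured on mouse rows only, and Rpl26l1 was not analysed here.

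The whole module was read as a share of the UMIs on rows of the cell's own species. The members took 10.1% in SD rat cells (6712017 UMIs), 13.7% in chimera rat cells (9636835 UMIs) and 17.3% in chimera mouse cells (2797648 UMIs). UMIs of chimera cells on rows of the other species were left out of the totals, while the SD rat had none to leave out. Lymphocytes and muscle progenitors held the largest shares. In T or NK-like cells the members took 21.0% in the SD rat, 29.9% in chimera rat and 28.0% in chimera mouse cells. In B-like cells of the chimera they took 25.7% (rat) and 33.9% (mouse). MP-like cells stood at 17.7, 21.1 and 25.4%, FAP-like cells at 10.1, 11.1 and 12.4%, and Myocyte-like cells at 9.07, 10.8 and 12.2%. EC-like cells stood at 7.16, 10.4 and 13.4%. Erythroid-like cells were lowest, at 1.24% in rat cells and at a median of 0.748% in mouse cells, whose pooled value was 7.33%.

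**Figure D2:**
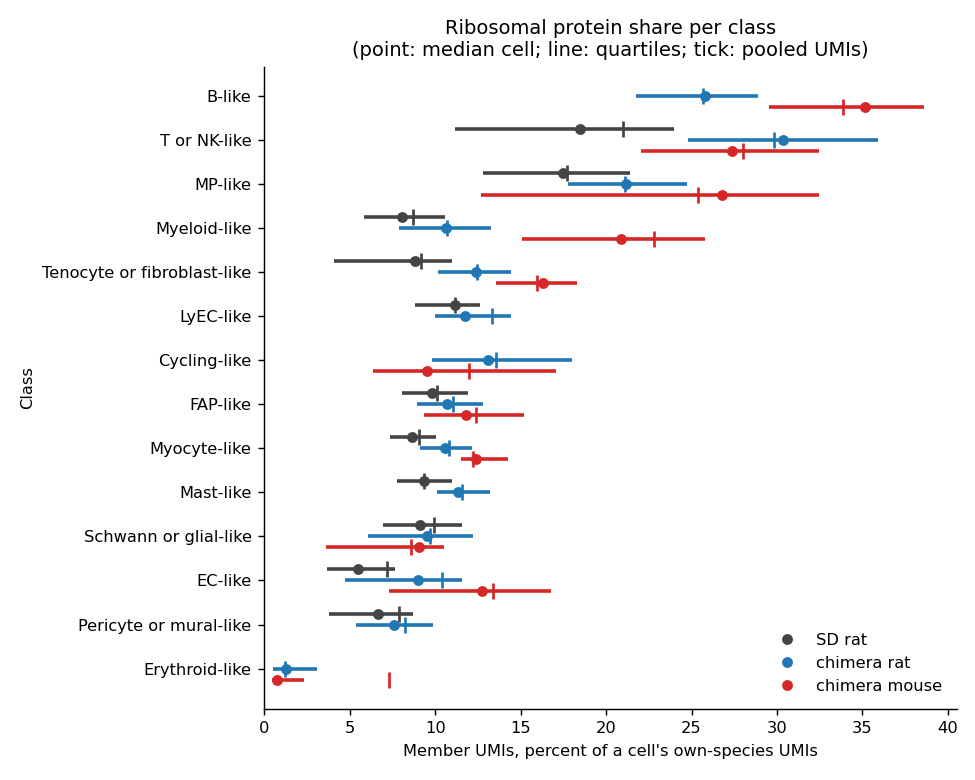
Share of member UMIs in a cell's own-species UMIs (x axis, percent) per class (y axis) in SD rat, chimera rat and chimera mouse cells; points are the median cell, lines the quartiles over cells and ticks the pooled UMIs. T or NK-like, B-like and MP-like cells stand highest and Erythroid-like cells lowest, and the quartile ranges of FAP-like and Myocyte-like cells overlap in each population.

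Cells varied widely within a class. In MP-like cells the middle cells (quartiles) ran from 12.8 to 21.4% in the SD rat, from 17.8 to 24.7% in chimera rat and from 12.7 to 32.4% in mouse cells, above the FAP-like quartiles of 8.08 to 11.9% and 8.96 to 12.8% in the rat populations. In mouse cells the MP-like range overlapped the FAP-like range of 9.37 to 15.2%. As a pooled ratio, MP-like over FAP-like cells gave a log2 of 0.81 in the SD rat, 0.93 in chimera rat and 1.03 in chimera mouse cells. The SD rat MP-like cluster held cycling cells, which were not a class of their own there. Mitochondrial mRNAs, a sign of RNA quality, took 7.09, 8.61 and 7.40% of MP-like UMIs and 4.33, 4.91 and 4.33% of FAP-like UMIs. They took 1.42, 0.860 and 0.0631% of Myocyte-like UMIs. Their part in the shares was not tested beyond a repeat without them.

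Mouse and rat Myeloid-like cells of the chimera lay furthest apart among the larger classes, with 22.8% in mouse and 10.7% in rat cells. Part of any such gap is fixed by the reference, since 13 names were measured on mouse rows only, among them Rpl41, Rpl37a and Rpl27a. On the 75 shared names alone the Myeloid-like shares were 19.6% (mouse) and 10.5% (rat), and those of all cells 14.8 and 13.4%, against 9.92% in the SD rat. The cell composition of the Myeloid-like class in the 2 species was not matched.

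The leading members were alike in kind. Rps29, a small zinc-binding protein of the small subunit, led in all 3 populations with 2.95% of member UMIs in the SD rat, 4.05% in chimera rat and 3.15% in mouse cells. It was followed by Rps2 and Rpl32 (both 2.68%) in the SD rat, by Rpl35 (2.88%) and Rps18 (2.77%) in chimera rat cells, and by Rpl41 (3.14%) and Rplp1 (2.31%) in mouse cells. The 10 leading members together held 25.6, 26.6 and 22.6% of member UMIs. At least 1000 UMIs were found for 76 of 83 names in the SD rat, 76 of 83 in chimera rat and 82 of 88 in mouse cells, while 4, 3 and 4 names had fewer than 100.

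Members differed in how far their part of the module varied between classes, as read for those with at least 1000 UMIs. The log2 range of a member's part between its highest and lowest class had a median of 0.73 over 76 members in the SD rat, 0.79 over 76 in chimera rat and 0.73 over 82 in mouse cells. A range of 1 or more, a 2-fold difference, was reached by 19, 23 and 13 members. A range of 2 or more was reached by 3, 5 and 2. Among the 5 in chimera rat cells was Rpl22 (2.98), with 1 UMI in its lowest class. These counts have no share over all genes beside them, and the populations did not hold the same classes. They were therefore not read as many or few, nor compared between populations.

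Among members with at least 1000 UMIs, the widest ranges in the SD rat belonged to Rpl3l (log2 range 5.88), Rpl3 (3.28) and Rps27l (2.15). Their ranges were 7.98, 2.92 and 2.83 in chimera rat cells, and those of Rpl3 and Rps27l were 4.81 and 2.36 in mouse cells. Some lowest classes held few UMIs, with 5 of Rpl3l in chimera rat Cycling-like and 4 of Rpl3 in mouse Myocyte-like cells. Since Rpl3l counts outside Myocyte-like cells were not read as expression, the size of its range was not either. Rpl3l had 97 mouse-row UMIs in mouse cells, 64 of them in Myocyte-like cells, and 0 in some classes, so no range is given there. Rpl3 had its lowest part in Myocyte-like and its highest in Schwann or glial-like cells in all 3 populations. Next came Rpl7l1 (1.95), lowest in Myocyte-like cells of both rat populations, and Rpl21 (1.70), a large subunit protein. Rack1, a scaffold on the small subunit that binds signaling kinases, had a range of 1.54, Rps16 1.51, Rpl10a 1.44, Rpl22 1.42 and Rps10l1 1.24. The last of these rested on few UMIs: Rpl22 had 67 in its lowest and 32 in its highest class, and Rps10l1 89 and 15. The Mast-like cells, 74 in the SD rat and 55 in the chimera, had the lowest part of Rpl21, Rack1, Rps16 and Rpl10a in both rat populations. Rack1 took 0.255% of member UMIs in SD rat Mast-like cells (110 UMIs) against 0.742% in Myocyte-like cells, and 0.350% (128 UMIs) against 0.762% in MP-like cells among chimera rat cells. Rpl10a was highest in MP-like cells of all 3 populations, at 0.666, 0.732 and 0.977% of member UMIs.

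**Figure D3:**
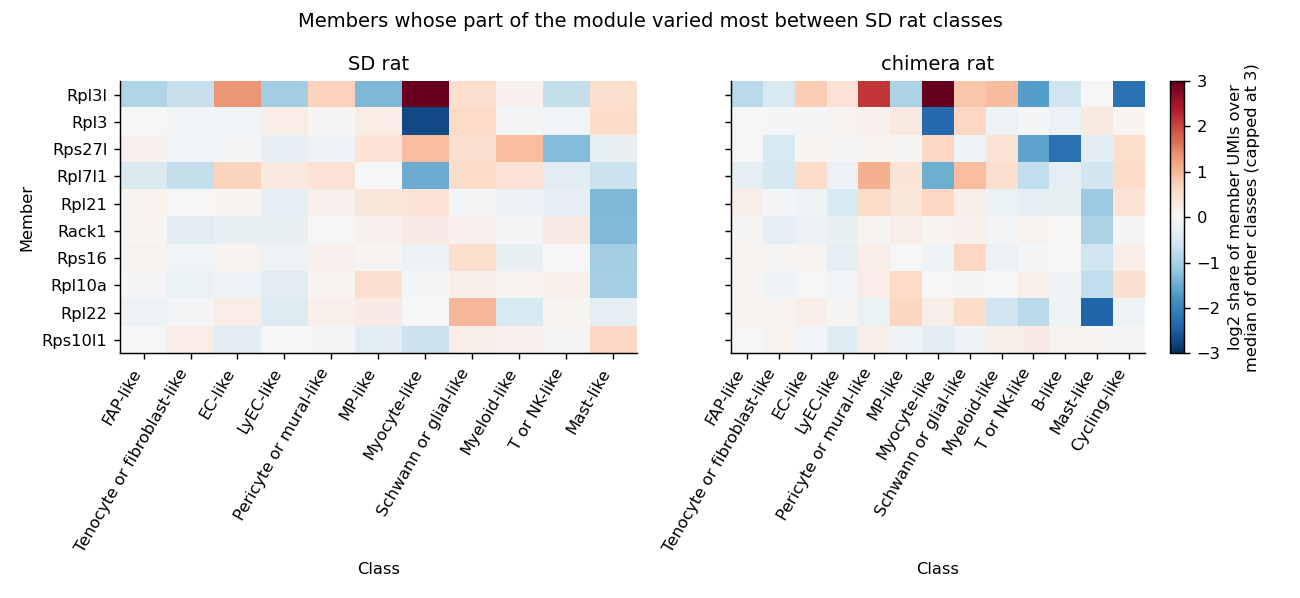
Log2 of a member's share of member UMIs over the median of the other classes (color, capped at 3 in either direction) for the 10 members with the widest range between SD rat classes among those with at least 1000 UMIs (y axis), per class (x axis) of SD rat and chimera rat cells. Rpl3l and Rpl3 stand out in opposite directions in Myocyte-like cells, Rps27l is low in T or NK-like and B-like cells, and Mast-like cells are low for Rpl21, Rack1, Rps16 and Rpl10a in both panels.

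Member by member, the MP-like level was above the FAP-like level for nearly the whole module. Members with at least 100 UMIs over both classes were read. A log2 ratio above 0 was found for 77 of 79 in the SD rat, 78 of 79 in chimera rat and 82 of 82 in chimera mouse cells. Over all genes it was found for 6257 of 10512, 5335 of 10153 and 1618 of 3519. A level at least 2-fold higher was reached by 19 of 79 in the SD rat (24.1%, against 16.3% of all genes), 32 of 79 in chimera rat (40.5%, against 13.9%) and 46 of 82 in mouse cells (56.1%, against 13.5%). The median member log2 ratio was 0.84, 0.96 and 1.03, and that of all genes 0.22, 0.06 and −0.11. Rpl10a was at 1179 CPM in SD rat MP-like and 485 CPM in FAP-like cells (log2 1.28), at 1544 and 554 CPM in chimera rat (1.48) and at 2483 and 1020 CPM in mouse cells (1.28). Rack1 gave log2 ratios of 0.87, 1.10 and 1.37. The 2 SD rat members under 0 were Rpl39l and Rpl10l, both with few UMIs.

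Genes that work with the ribosome gave these values for the same comparison. Ribosome biogenesis genes, which make and assemble rRNA and subunits, were at least 2-fold higher in MP-like cells for 13 of 15 genes in the SD rat, 11 of 14 in chimera rat and 3 of 6 in mouse cells, with median log2 ratios of 1.56, 1.66 and 1.24. The rRNA methylase fibrillarin (Fbl) gave 1.81, 2.07 and 1.59 and nucleolin (Ncl) 1.71, 1.93 and 1.79. Translation genes with TOP mRNAs were at least 2-fold higher for 5 of 11, 5 of 11 and 7 of 14 genes (medians 0.84, 0.95 and 1.01), led by Npm1, a nucleolar chaperone, at 1.16, 1.48 and 1.90. Mitochondrial ribosomal protein genes, which build the separate ribosome of mitochondria, were at least 2-fold higher for 17 of 68, 17 of 67 and 3 of 29 (medians 0.75, 0.62 and 0.39). Of all genes, 16.3% in the SD rat, 13.9% in chimera rat and 13.5% in mouse cells were at least 2-fold higher. The mitochondrial list in mouse cells, at 10.3%, was below this background, and every other share of these lists was above it.

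Myocyte-like cells held members at about the FAP-like level while most other genes were far lower. In the SD rat 1 of 79 members (1.27%) was at least 2-fold higher than in FAP-like cells, against 10.8% of all genes, and 4 of 79 (5.06%) at least 2-fold lower, against 61.5%. The 1 higher member was Rpl3l, and the lower ones were Rpl3, Rpl39l, Rpl7l1 and Rpl10l. In chimera rat cells 2 of 78 members were higher (against 8.6%), Rpl3l among them, and Rpl3, Rpl7l1, Rpl10l and Rps3 (4 of 78, against 66.6%) were lower. The median member log2 ratio was −0.14 in the SD rat, 0.02 in chimera rat and −0.08 in mouse cells, where that of all genes was −1.57, −1.86 and −3.57. A CPM is a share of the cell's total, and myosins, actin and troponins take much of that total in fibers, so these ratios do not give molecules per cell.

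Other translation genes gave these values in Myocyte-like cells. Mitochondrial ribosomal protein genes were at least 2-fold higher than in FAP-like cells for 50 of 68 genes in the SD rat, 34 of 68 in chimera rat and 12 of 23 in mouse cells (median log2 1.51, 1.00 and 1.46). These were 73.5, 50.0 and 52.2% of the list, against 10.8, 8.6 and 8.32% of all genes. Biogenesis genes were at least 2-fold lower for 8 of 15, 9 of 15 and 3 of 4 (53.3, 60.0 and 75% of the list, against 61.5, 66.6 and 75.1% of all genes), so their share was near the background or below it, with Ncl at −1.79, −1.62 and −2.13. Eef1a1, the general elongation factor, stood at −3.58, −3.86 and −3.14, below any member but Rpl3 in mouse cells.

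Rat and mouse copies had to be read apart, because reads of some members fell on the row of the other species. For 74 members with a row of the same name in both species and at least 100 UMIs, the median share on the mouse row in rat cells was 0.744%, against 4.40% over all gene pairs. A share over 5% was found for 9 of 74 (12.2%), against 46.3% of all pairs. The 5 highest were Rpl35a with 93.6%, Rpl37 with 92.8%, Rpl22 with 90.7%, the stalk protein Rplp2 with 88.0% (157602 mouse-row against 21592 rat-row UMIs) and Rpl5, the carrier of 5S rRNA, with 67.8% (64938 against 30811 UMIs). Rplp0, Rpl14 and Rps27a were also over 5%, with 41.2, 14.99 and 9.38%. Rplp2, Rplp0 and Rpl5 alone gave 69.0% of the 465813 member UMIs that rat cells had on mouse rows of shared names.

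**Figure D4:**
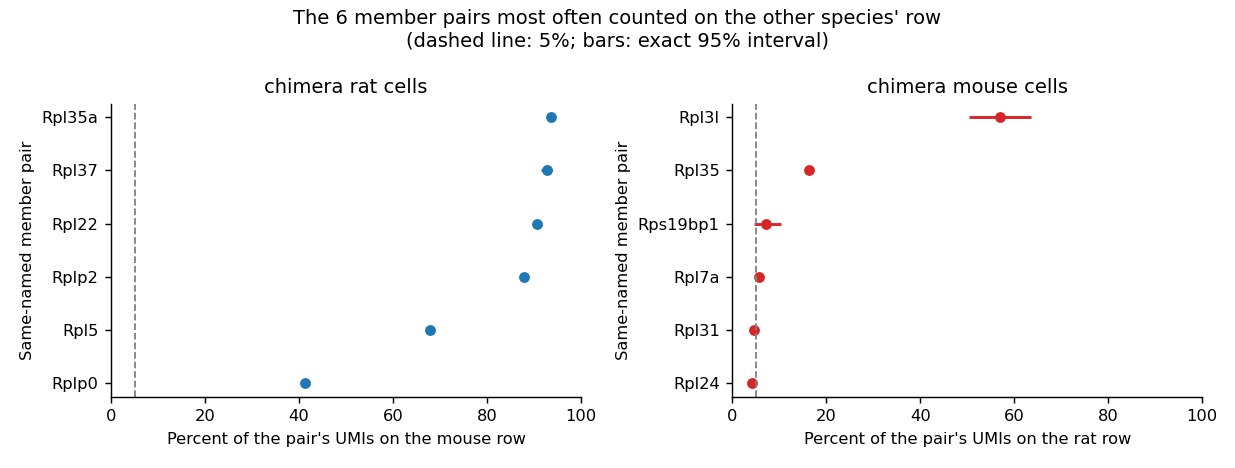
The 6 members with the highest share of UMIs on the row of the other species (x axis, percent of the UMIs on both rows of that name) in chimera rat cells (left) and chimera mouse cells (right); lines are exact 95% intervals and the dashed line is 5%. In rat cells all 6 members drawn lie above the dashed line and 5 of them above 50%, while in mouse cells 4 of the 6 lie above it.

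For Rplp2 and Rpl5 the split was close in the 3 rat classes given here. Rplp2 had 88.9% on the mouse row in FAP-like, 87.6% in Myocyte-like and 87.1% in T or NK-like cells, and Rpl5 had 69.1, 70.0 and 66.1%. Rpl37, with fewer UMIs, varied more, with 77.2% in MP-like (44 of its UMIs on the mouse row and 13 on the rat row), 78.1% in T or NK-like (100 and 28), 97.6% in Myocyte-like (445 and 11) and 100% in Schwann or glial-like cells (20 and 0). In the other direction the same genes kept to their row: mouse cells had 0.584% of Rplp2 and 1.28% of Rpl5 on the rat row.

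In mouse cells the median share on the rat row was 2.15% over 73 pairs, against 2.29% over all gene pairs, and 4 of 73 (5.48%) were over 5%, against 15.9% of all pairs. This count depended on the species call, with 2 pairs when mouse cells needed 90% mouse UMIs and 65 when a majority was enough, and was 2 for pairs with at least 500 UMIs. These were Rpl3l with 57.1% (129 rat-row against 97 mouse-row UMIs), Rpl35 with 16.3%, Rps19bp1 with 7.12% and Rpl7a with 5.58%, and Rpl31 followed with 4.63%. The rat-row share of Rpl35 ranged from 4.21% in B-like (63 rat-row UMIs) and 4.36% in MP-like through 15.8% in FAP-like to 44.2% in Myocyte-like (34 rat-row UMIs) and 61.4% in Erythroid-like mouse cells (102 rat-row UMIs). Rpl3l had 10 rat-row and 64 mouse-row UMIs in Myocyte-like mouse cells (13.5% on the rat row), so most of its rat-row UMIs lay in mouse cells of other classes. Free RNA from rat fibers and reads that fit both species cannot be told apart there.

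Against the SD rat, rat cells of the chimera had a higher member share in most classes. The log2 ratio of the share was 0.53 in EC-like (1.45-fold), 0.51 in T or NK-like (1.42-fold), 0.44 in Tenocyte or fibroblast-like, 0.30 in Myeloid-like, 0.25 in MP-like (1.19-fold) and 0.25 in Myocyte-like cells (1.19-fold). It was 0.13 in FAP-like (1.09-fold), 0.06 in Pericyte or mural-like and −0.03 in Schwann or glial-like cells. Classes were not fully matched. The SD rat T or NK-like cluster also held B cell markers and its MP-like cluster cycling cells. In the chimera, B-like and Cycling-like cells were classes of their own. Animal, library and reference differed together, so they cannot be told apart. Median depth also differed, with 2606.5 UMIs in SD rat EC-like cells and 4502.5 in those of the chimera, and in cells of 5000 to 20000 UMIs the EC-like shares were 8.04% (SD rat) and 10.9% (chimera). The T or NK-like shares in that range were 23.8 and 31.0%. Chimera rat FAP-like cells with at most 10% of UMIs on mouse rows had a share of 12.1% (509 cells), and those with over 10 to 20% had 10.7% (2111 cells).

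Single members followed the shift of the whole share. In EC-like cells the median member log2 ratio was 0.53 and that of all genes −0.09, and in FAP-like cells 0.14 and 0.07. In MP-like cells the values were 0.25 and −0.05, and in Myocyte-like cells 0.24 and −0.18. In FAP-like cells 2 of 79 members (2.53%) were at least 2-fold lower in the chimera, against 1.6% of all genes, and 1 of 79 (1.27%) at least 2-fold higher, against 0.771%. In EC-like cells 1 of 76 (1.32%) was lower, against 3.38%, and 2 of 76 (2.63%) higher, against 2.51%. None of 76 members reached 2-fold in MP-like cells, where 3.91% of all genes were lower and 0.652% higher, or in Myocyte-like cells, where 5.39% were lower and 0.689% higher. The members past 2-fold were thus near the background share or below it in these 4 classes.

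The lowest members in FAP-like cells were Rpl39l (log2 −1.26, 35 against 158 UMIs), Rpl3l (−1.09), Rpl5 (−0.76), Rplp2 (−0.67) and Rpl22 (−0.48). Rpl5, Rplp2 and Rpl22 are among the members with most reads on mouse rows. When the UMIs of the same-named mouse row were added to the chimera rat cells, they turned to 0.84, 2.40 and 2.54, and Rplp0 turned from −0.45 to 0.25. The SD rat was counted on rat rows alone and had no mouse row to add, so these added values compare unlike counts. They were not read as a higher level in the chimera. Rpl3l kept −1.05. The myocyte markers in FAP-like cells stood at 2.44% of their Myocyte-like level in the SD rat and at 1.21% in the chimera. In Myocyte-like cells, where Rpl3l was highest, it differed by 0.05 (3328 chimera and 4511 SD rat UMIs), or 0.01 with mouse rows added.

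**Figure D5:**
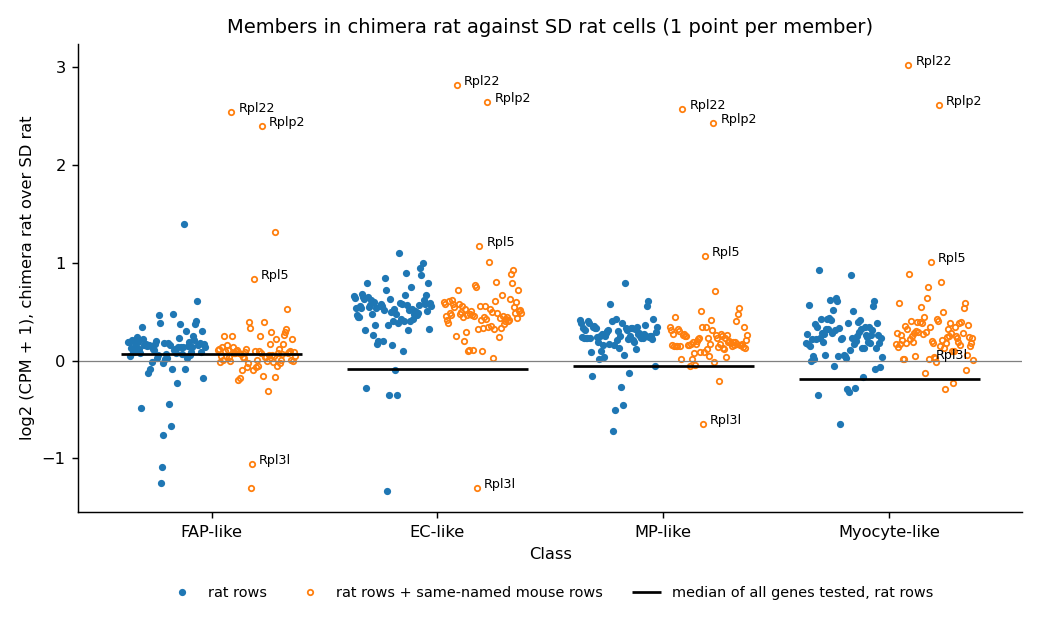
Log2 ratio of CPM (1 CPM added) in chimera rat over SD rat cells for each member (y axis) in 4 classes (x axis), on rat rows (filled) and with the UMIs of same-named mouse rows added (open); black bars are the median of all genes tested on rat rows. Most members lie above the black bar, and Rpl22, Rplp2 and Rpl5 move to the top once mouse rows are added. The SD rat had no mouse rows to add, so the open points compare unlike counts.

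The highest members in FAP-like cells were Rps18l1 (1.40, 227 against 87 UMIs), Rps29 (0.61), Rps10l1 (0.48), Rpl38 (0.47) and Rps28 (0.41). Rps29, Rps28 and Rpl38 are small proteins with short mRNAs. They were also higher in EC-like cells (1.00, 0.87 and 0.84), MP-like cells (0.61, 0.55 and 0.58) and Myocyte-like cells (0.61, 0.56 and 0.64), and above the member median in each of these classes. Rps29 stood at 4554 CPM in chimera rat and 2988 CPM in SD rat FAP-like cells, and at 4423 and 2208 CPM in EC-like cells. Rps18l1 and Rps10l1 are rat copies named after Rps18 and Rps10, and reads of such copies and their parents may be split by the counting.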

How the data were processed

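Muscle cells of 2 animals, a rat-mouse chimera and an SD rat, were measured with a 10x Genomics 3′ kit. The authors deposited unnormalized UMI counts for each gene row and cell barcode. They came from Cell Ranger 7.1.0 with the builds mRatBN7.2 and GRCm39, per the submitters' processing notes. Barcodes were kept with at least 500 UMIs, 200 genes and at most 20% mitochondrial UMIs. Scrublet (scanpy 1.11.5, expected rate 8%) marked 444 of 12174 chimera (3.65%) and 164 of 8980 SD rat barcodes (1.83%) as doublets, which were left out.

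SD rat, chimera rat and chimera mouse cells were clustered apart on their own species' genes (2000 variable genes without members, 30 components, 15 neighbours, leidenalg 0.10.2, resolution 1). Classes were rebuilt from marker lists and are not the study's names, which by itself can make values differ from the study's. Clusters without a clear class stayed unnamed (633, 250 and 52 cells). UMIs were summed per class. Shares have exact binomial 95% intervals (Clopper-Pearson, scipy 1.17.1). Fold changes are log2 ratios of CPM with 1 CPM added, for genes with at least 100 UMIs over both groups, and 2-fold was the size rule. No test was made, since each group had 1 library. Ratios were checked on simulated counts.

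Named were the paralog pairs and fixed lists, the 10 members with the widest range between SD rat classes (at least 1000 UMIs), the 5 most split pairs in each species, the 5 lowest and 5 highest members in chimera against SD rat FAP-like cells, and the 3 leading members of each population. A few further members were named after their values were seen. Results for a few members are not reported here. Members and lists were chosen with earlier results of these data known.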

Additional observations from a re-analysis of the deposited data

How the results depend on the processing

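Over 207 recomputed values, 123 stayed within the counting interval or within 1.5 times the count, 83 moved outside it, and 1 changed sign. That 1 was the Myocyte-like over FAP-like share in chimera rat cells, at −0.03 (log2), which became 0.032 when same-named mouse-row UMIs were added. The cause of the moves was not tested. The Rpl3l share of Myocyte-like cells moved in the SD rat only in cells of 5000 to 20000 UMIs (80.4%, a range chosen after seeing the data), and in mouse cells with species called at 90% and in that depth range (both 100%). Of the 29 mouse Myocyte-like cells, only 5 had at most 10% of UMIs on rat rows, and 24 had over 10 to 20%. Only 7 of the 29 lay in that depth range. The MP-like over FAP-like log2 share in the SD rat was 0.87 with at least 1000 UMIs per cell, 0.81 with members among the variable genes, 0.85 without mitochondrial genes and 18S in the total, and 0.85 in cells of 5000 to 20000 UMIs. In chimera rat cells it was 0.88 with species called at 90%, 0.92 with species called by majority, 0.89 with members variable, 0.88 at resolution 0.5, 0.93 with 15 components, 0.99 without mitochondrial genes and 18S, and 0.99 in that depth range. In mouse cells it was 0.96 by majority, 1.07 without mitochondrial genes and 18S, 1.02 with rat-row UMIs added and 1.05 in that depth range. The chimera over SD rat log2 share in FAP-like cells was 0.13 with doublets kept, 0.26 at 90%, 0.12 by majority, 0.13 without mitochondrial genes and 18S, 0.10 with mouse rows added and 0.10 in the depth range. In EC-like cells it was 0.46 with doublets kept, 0.49 with at least 1000 UMIs, 0.73 at 90%, 0.50 by majority, 0.51 with members variable, 0.51 at resolution 0.5, 0.54 with 15 components, 0.51 with mouse rows added and 0.44 in the depth range. In MP-like cells it was 0.19 with at least 1000 UMIs, 0.33 at 90%, 0.24 by majority, 0.20 with members variable, 0.20 at resolution 0.5, 0.24 with 15 components, 0.28 without mitochondrial genes and 18S, 0.23 with mouse rows added and 0.24 in the depth range. In Myocyte-like cells it was 0.28 at 90%, 0.25 with 15 components, 0.25 without mitochondrial genes and 18S and 0.30 with mouse rows added. The 2 members at least 2-fold lower in FAP-like cells became 0 at 90%, 0 with 10 CPM added and 1 with at least 500 UMIs per gene. The 4 pairs of mouse cells over 5% became 2 at 90%, 65 by majority and 2 with at least 500 UMIs per pair. No paired analysis was possible because each group had 1 library, and no replicate could be left out. The intervals cover counting only and not the spread between animals, and values from mouse Myocyte-like cells rest on 29 cells.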

Other observations

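The 1653 mixed barcodes, with between 20 and 80% of their UMIs on mouse rows, entered no class. Of these, 458 held an Rpl3l UMI: 154 on rows of both species, 213 on the rat row only and 91 on the mouse row only. They held 890 rat Rpl3l against 6359 rat Rpl3 UMIs (12.3% Rpl3l) and 469 mouse Rpl3l against 5195 mouse Rpl3 UMIs (8.28%). Their median depth was 4644 UMIs.

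The names measured on mouse rows only also held UMIs in rat cells. The Rpl7 row held 8122 UMIs in chimera rat cells and 25931 in mouse cells, the Rps27rt row 1059 and 2239, and the Rpl41 row 2935 and 87773.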
